A study of Homo sapiens with 6 samples.

Results

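The RNA exosome is the main 3′ to 5′ RNA-degrading machine of eukaryotic cells. It trims ribosomal and small RNA precursors in the nucleus, removes faulty and unstable transcripts, and takes part in mRNA turnover in the cytoplasm. Its core is a barrel in which a ring of 6 RNase PH-like proteins, EXOSC4 to EXOSC9, carries a cap of 3 RNA-binding proteins, EXOSC1 to EXOSC3. The barrel itself has no catalytic activity in human cells, and the cutting is done by attached nucleases, the distributive 3′ to 5′ exonuclease EXOSC10 in the nucleus and the DIS3 proteins.

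The genes described are EXOSC1 to EXOSC10, 10 of the 25420 genes in the tables, found through their Entrez identifiers. They were chosen by measured values as well as by name, since earlier results of these libraries were known, in which EXOSC4 stood among the strongest falls in newly synthesized RNA. The values they were selected on are the changes between C646 and DMSO in T > C reads and in all reads. Calls from the fits across all genes are given for the members as a description of these values and not as a test of them. The ring and cap genes were taken whole, so that members with small changes are included. DIS3 and DIS3L, the other nucleases of the complex, are given below among the pathway genes.

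SLAM-seq marks new transcripts with 4-thiouridine (4sU), a uridine analogue that is read as C instead of T after alkylation, so that reads flagged for T > C conversions (T > C reads) are taken to come from RNA made during labelling. The number of conversions behind this flag is not given in the sources used here, and reads with a single conversion may be among them. For example, the main 3′ UTR entry of EXOSC1 had 11 T > C reads and 11 conversions in C646 replicate 2. The libraries were made from MOLM-13, an established human acute myeloid leukaemia cell line, with 3 replicates in DMSO and 3 in 10 µM C646, an inhibitor of the acetyltransferases CBP and p300. Treatment lasted 2 h, and 100 µM 4sU was present in both groups for the last 1 h. No library lacks 4sU, so the share of T > C reads that arises without label is not known. The libraries are 3′ end libraries, and one cell line and one inhibitor dose were studied. Neither the labels nor the methods say whether the replicates were separate cultures, so that the spread between libraries may be technical.

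The tables held 7252597 to 10225448 reads on 3′ UTRs per library, of which 477824 to 833410 were T > C reads. The 10 members had 6441 to 8910 reads per library and 265 to 902 T > C reads, and a single member had between 5 and 205 T > C reads in a library. PCR copies of 1 molecule are counted as separate reads. All 10 markers of a myeloid leukaemia line that were looked up (CD33, FLT3, HOXA9, MEIS1, CEBPA and others) reached a CPM of 1 (reads per 1000000 reads of the library) in at least 1 library. Of 10 markers listed for other cell types, 5 reached 1 CPM, while CD3E and HBB were at 0 in each of the 6 libraries. The highest was PECAM1, at 145 to 155 CPM in DMSO and 87.5 to 125 CPM in C646. In DMSO this is close to CD33 of the leukaemia list, at 168 to 187 CPM. The summed level of the 10 markers listed for other cell types was 149.6 to 160.1 CPM in DMSO and 98.0 to 136 CPM in C646. Nearly all of it was PECAM1, so that the sum is not read as a level of other cells. COL1A1 went the other way, with 0.819 to 2.34 CPM in DMSO and 5.71 to 6.65 CPM in C646, as did EPCAM (0 to 0.532 and 0.685 to 1.86 CPM). Markers of the leukaemia list moved as well, without overlap of the groups. CD33, CSF1R and SPI1 were lower in C646, with SPI1 at 169 to 242.5 CPM in DMSO and 69.0 to 112 CPM in C646. FLT3 and PTPRC were higher, with FLT3 at 101 to 135 CPM in DMSO and 172 to 206 CPM in C646. The part of these differences in the results was not tested.

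Summed over the members, T > C reads came to 90.7 ± 4.51 CPM of the library's reads (SD, n = 3) in DMSO and to 37.5 ± 3.29 CPM in C646. Of all reads on the family, 10.0% ± 0.375 were T > C reads in DMSO and 4.26% ± 0.348 in C646, while over all genes 8.74 to 8.86% of a library's reads were T > C reads in DMSO and 6.34 to 6.71% in C646. All reads of the family summed to 903 ± 23.9 CPM in DMSO and 881 ± 37.3 CPM in C646, a sum that holds members at 55.5% (EXOSC4) and at 133% (EXOSC8) of their DMSO level. In bulk RNA, fewer cells and less RNA per cell cannot be told apart.

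The changes were unequal within the family. In T > C reads scaled by the library totals of all reads, 7 of the 10 members were called lower in C646 (edgeR's quasi-likelihood fit with limits of 0.01 on the adjusted p and 1 on the size of the log2 fold change), namely EXOSC2, EXOSC3, EXOSC4, EXOSC6, EXOSC7, EXOSC9 and EXOSC10. None was called higher, and with this scaling none was higher at an unadjusted p under 0.05 or called by DESeq2. Over all 7760 genes tested, 33.8% were called lower and 2.90% higher, and since the members were chosen with this comparison known, nothing is read from the difference. The median log2 fold change was −1.82 over the members and −0.84 over all tested genes. The same 7 members had all 3 C646 libraries below all 3 DMSO libraries in CPM, as did 56.6% of all tested genes.

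EXOSC4 had the largest change of the family. This ring subunit had 100, 138 and 86 T > C reads in DMSO replicates 1 to 3 and 5, 8 and 7 in C646. The groups were far apart, with the highest C646 count, 8, below the lowest DMSO count, 86. Its log2 fold change was −4.13 ± 0.37 (SE), which leaves 5.71% of the DMSO level, and 0.464% of the tested genes had a lower value. In all reads EXOSC4 had 964, 1189 and 805 reads in DMSO and 554, 624 and 610 in C646, again without overlap, with a log2 fold change of −0.85 ± 0.18. The annotated 3′ UTR of EXOSC4 (GRCh38, chromosome 8, 144080602 to 144080648, plus strand) is only 47 bases long and holds 6 T bases, and it overlaps an exon of a further, unnamed gene of GENCODE on the same strand. Its T bases carried 32, 78 and 26 conversions in the DMSO libraries, fewer than its T > C reads, so that some of these reads owe their flag to conversions outside the entry.

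EXOSC7, also a ring subunit, was second. It had 55, 51 and 56 T > C reads in DMSO and 8, 5 and 9 in C646. The DMSO libraries were close together and well above those of C646. The log2 fold change was −2.98 ± 0.41, or 12.6% of the DMSO level. All reads of EXOSC7 overlapped between the groups, with 703, 465 and 643 in DMSO and 534, 553 and 632 in C646 and a log2 fold change of −0.18 ± 0.15. Its 3′ UTR (chromosome 3, 45011340 to 45011470, plus strand, 131 bases) overlaps an exon of CLEC3B in GENCODE on the same strand, and reads of these genes cannot be told apart there.

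EXOSC2, a cap subunit with RNA-binding domains, had 62, 20 and 29 T > C reads in DMSO and 6 in each C646 library. The DMSO libraries differed among themselves by more than those of EXOSC7, but each was above all of C646. The log2 fold change was −2.65 ± 0.51 in T > C reads and −0.47 ± 0.17 in all reads, where the groups overlapped (517, 410 and 300 against 313, 286 and 345). Its 3′ UTR spans 1120 bases (chromosome 9, 130703775 to 130704894, plus strand).

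EXOSC10, the nuclear exonuclease, had 42, 22 and 43 T > C reads in DMSO and 5, 7 and 7 in C646. Its log2 fold change was −2.57 ± 0.49, or 16.8% of the DMSO level. In all reads it had 606, 527 and 577 in DMSO and 460, 532 and 547 in C646, so that the groups overlapped in CPM, with a log2 fold change of −0.27 ± 0.14. The gene's 3′ UTR entry has 105 bases (chromosome 1, 11066613 to 11066717, minus strand), and 2.00% of its reads also mapped elsewhere, the highest share among the members.

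EXOSC6 had the most T > C reads for its level in DMSO. This ring subunit, encoded by a gene without introns, had 172, 144 and 126 T > C reads in DMSO and 13, 47 and 44 in C646. The C646 libraries were spread over a wide range, yet all lay below DMSO. The log2 fold change was −2.21 ± 0.28, or 21.6% of the DMSO level. In all reads it had 825, 783 and 626 in DMSO and 418, 429 and 555 in C646 with no overlap in CPM and a log2 fold change of −0.79 ± 0.14. The reads fall on a proximal 3′ UTR entry (chromosome 16, 70250231 to 70251081, minus strand) that ends 3453 bases before the end of the canonical GENCODE transcript, and it was the entry listed for this gene.

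EXOSC9 and EXOSC3 changed less. EXOSC9, a ring subunit known as an autoantigen in polymyositis and scleroderma, had 65, 43 and 27 T > C reads in DMSO and 15, 11 and 28 in C646. Its log2 fold change was −1.43 ± 0.39, and the groups did not overlap in CPM although the highest C646 count was above the lowest DMSO count. EXOSC3, a cap subunit whose mutations cause pontocerebellar hypoplasia, had 113, 48 and 60 T > C reads in DMSO and 33, 17 and 53 in C646, and a log2 fold change of −1.19 ± 0.32. Its 3′ UTR entry (chromosome 9, 37779714 to 37780859, minus strand) overlaps an exon of a further, unnamed GENCODE gene on the same strand. Both calls depend on single libraries and on the settings. Without DMSO replicate 1, EXOSC3 stood at −0.92 and EXOSC9 at −1.23, and without C646 replicate 2 at −0.90 and −1.20, and neither gene was called in these fits. Without DMSO replicate 2, EXOSC9 (−1.36) was not called either. Under scaling by all filtered reads EXOSC3 was at −0.98 and EXOSC9 at −1.21, and neither was called there or with glmTreat.

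The other 3 members were not called. EXOSC8, a ring subunit, had by far the most T > C reads in C646. Its counts were 205, 118 and 121 in DMSO and 121, 156 and 185 in C646, and the groups overlapped, with a log2 fold change of −0.04 ± 0.20. EXOSC5, a ring subunit, had 46, 49 and 69 T > C reads in DMSO and 36, 33 and 60 in C646 (−0.50 ± 0.31). EXOSC1, a cap subunit, had the fewest in DMSO, with 42, 15 and 20 against 23, 11 and 16 in C646 (−0.66 ± 0.47). The groups of both overlapped. The sign of all 3 depends on the scaling, since under scaling by the T > C reads themselves EXOSC8 was at 0.75, EXOSC5 at 0.28 and EXOSC1 at 0.13. EXOSC8 then passed the limit on the adjusted p but not that on the fold, with edgeR as well as with DESeq2 and its size factors from T > C reads (0.79), whereas EXOSC5 and EXOSC1 passed neither limit.

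**Figure D1:**
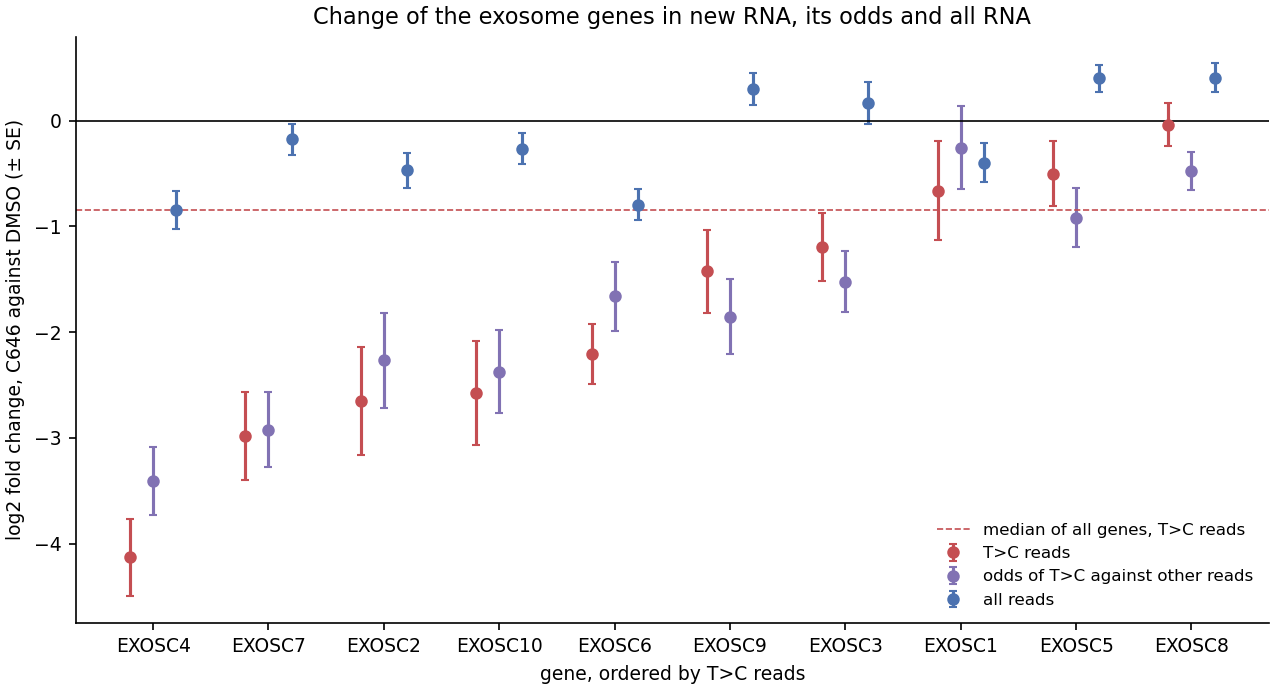
Log2 fold changes of C646 against DMSO for the 10 members, ordered by T > C reads, in T > C reads (red), in the odds of T > C against other reads (violet) and in all reads (blue); bars are standard errors and the dashed line is the median of all tested genes in T > C reads (−0.84). EXOSC4 stands at −4.13 in T > C reads and −0.85 in all reads, EXOSC8 at −0.04 and 0.41.

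Another scaling of the libraries moves all genes by nearly the same amount. Scaling by the T > C reads themselves moved them up by a median of 0.79 on the log2 scale, and scaling by all filtered reads by 0.22. Taken from the median of all tested genes, which removes that shift by construction, EXOSC4 was at −3.29, EXOSC7 at −2.14, EXOSC2 at −1.81, EXOSC10 at −1.73 and EXOSC6 at −1.37. On that scale EXOSC9 was at −0.58 and EXOSC3 at −0.35, whereas EXOSC1 (0.18), EXOSC5 (0.34) and EXOSC8 (0.81) were above the median gene. Under scaling by the T > C reads, 5 members were called lower (EXOSC2, EXOSC4, EXOSC6, EXOSC7 and EXOSC10) against 8.55% of all tested genes. With DESeq2 and its size factors from T > C reads, the calls of EXOSC2 (−1.84) and EXOSC10 (−1.78) were lost as well, since their adjusted p was above the limit, and 4.78% of all genes with an adjusted p were called lower. In the edgeR fit with that scaling, the median of the members was −1.04 and that of all genes −0.05.

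The make-up of the family's newly synthesized RNA needs no scaling between libraries, but a member's share also moves with the other members. EXOSC8 gave 19.98% ± 2.41 of the family's T > C reads in DMSO and 47.4% ± 3.91 in C646. Its own T > C reads were at 18.2 ± 3.00 CPM in DMSO and 17.7 ± 1.70 CPM in C646. EXOSC5 went from 7.83% ± 2.88 to 13.002% ± 1.82 of the family, with 7.01 ± 2.24 CPM in DMSO and 4.90 ± 0.970 CPM in C646. In the other direction, EXOSC4 went from 15.3% ± 5.34 to 2.08% ± 0.513, EXOSC6 from 20.4% ± 1.65 to 10.4% ± 5.36 and EXOSC7 from 7.59% ± 1.37 to 2.28% ± 0.686. In all reads EXOSC8 made up 22.04% ± 1.85 of the family's reads in DMSO and 29.9% ± 2.10 in C646, and EXOSC4 13.9% ± 3.63 and 7.92% ± 0.941.

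**Figure D2:**
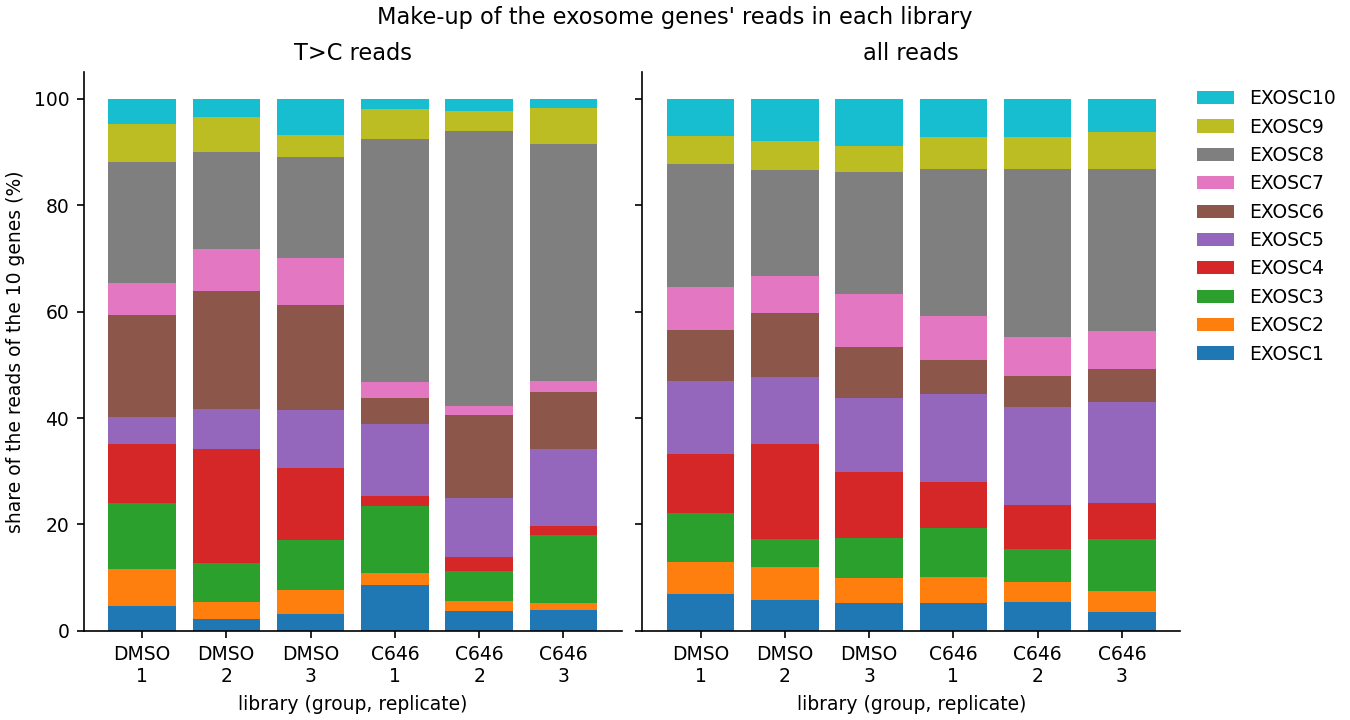
Share of each member in the T > C reads (left) and all reads (right) of the 10 genes, in percent, for each library. The EXOSC8 segment takes 18.2 to 22.7% of the left-hand bars in DMSO and 44.6 to 51.8% in C646.

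In all reads no member was called in either direction by edgeR's quasi-likelihood fit or by DESeq2, while 2.00% of the 10851 genes tested were called lower and 5.72% higher by edgeR. At an unadjusted p under 0.05 the same fit had 4 members lower and 2 higher, against 21.3% and 21.5% of all tested genes. The median log2 fold change was −0.22 over the members and −0.02 over all genes. In CPM, EXOSC4 and EXOSC6 had all C646 libraries below DMSO, which 24.0% of the tested genes had. On the same scale EXOSC5, EXOSC8 and EXOSC9 had all C646 libraries above DMSO, as 23.6% of the genes did. The log2 fold changes of these 3 were 0.40 ± 0.13, 0.41 ± 0.13 and 0.30 ± 0.15. Their counts before scaling overlapped, and EXOSC8, for example, had 1995, 1314 and 1492 reads in DMSO and 1772, 2369 and 2717 in C646. EXOSC3 and EXOSC1 stood at 0.17 ± 0.20 and −0.40 ± 0.18. Across the 10 genes the changes in T > C reads and in all reads had a Spearman rho of 0.72 (Pearson's r = 0.74), and both are counted on the same libraries, the T > C reads being part of all reads.

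The odds that a read of a gene is a T > C read compare the 2 kinds of read within the same library. In this measure the same 7 members were called lower, against 38.2% of all tested genes. The log2 odds changed by −3.41 ± 0.32 for EXOSC4, −2.92 ± 0.36 for EXOSC7, −2.37 ± 0.40 for EXOSC10, −2.27 ± 0.45 for EXOSC2, −1.85 ± 0.35 for EXOSC9, −1.66 ± 0.32 for EXOSC6 and −1.52 ± 0.29 for EXOSC3. EXOSC5 stood at −0.92 ± 0.28, EXOSC8 at −0.48 ± 0.18 and EXOSC1 at −0.26 ± 0.39. As plain shares, the T > C reads of EXOSC4 were 10.9% ± 0.641 of its reads in DMSO and 1.11% ± 0.192 in C646, and those of EXOSC8 9.12% ± 1.09 and 6.74% ± 0.135. The shares of 9 members, EXOSC1 being the exception, were lower in every C646 library than in any DMSO library, a pattern found in 64.5% of the tested genes.

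The labelling of the members in DMSO alone was not used to choose them. EXOSC6 stood out with 19.8% ± 1.26 of its reads being T > C reads (SD, n = 3), above the range of each other member. It was followed by EXOSC3 (13.6% ± 1.20), EXOSC9 (11.8% ± 2.96), EXOSC4 (10.9% ± 0.641), EXOSC7 (9.17% ± 1.62), EXOSC8 (9.12% ± 1.09) and EXOSC2 (8.85% ± 3.63). EXOSC10 (6.19% ± 1.76), EXOSC5 (5.85% ± 1.903) and EXOSC1 (5.57% ± 1.57) were lowest. From EXOSC3 downwards, the libraries of each gene overlapped those of the next in the order. The median of the 10 genes was 9.14%, below the 13.5% of the 5837 genes whose mean over the libraries reached 20 T > C reads, and 8 members were under that median. That set is chosen by its T > C reads, so that genes with few reads enter it only with a high share. Over all reads of a DMSO library the share was 8.74 to 8.86%.

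Conversions per covered T base gave a similar order and do not depend on how many T bases a read can show. EXOSC6 was again first with 14.3 ± 2.47 conversions per 1000 covered T, then EXOSC9 (10.2 ± 1.83), EXOSC3 (9.40 ± 2.19) and EXOSC4 (7.90 ± 3.26), and EXOSC1 was last with 3.73 ± 1.503. All neighbours in this order overlapped. The median over the members was 6.51 and over the same 5837 genes, chosen by their T > C reads, 9.20. The DMSO T > C share and the change in T > C reads had a Spearman rho of −0.27 across the 10 genes, and the share and the change in all reads −0.16. EXOSC4 and EXOSC8 show the spread, with DMSO shares close to each other and the largest and the smallest change of the family.

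**Figure D3:**
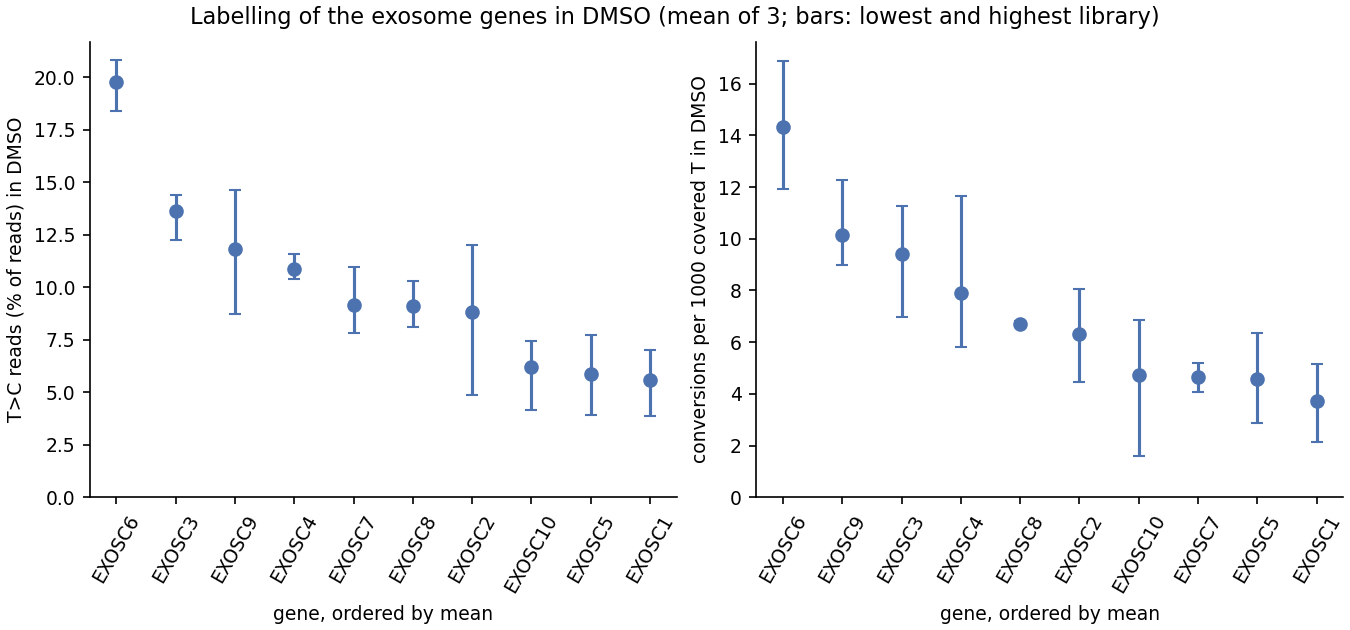
T > C reads as a percentage of reads (left) and conversions per 1000 covered T bases (right) of the members in the 3 DMSO libraries, each ordered by the mean; dots are means and bars reach from the lowest to the highest library. EXOSC6 is highest in both (19.8% and 14.3), and EXOSC1 lowest (5.57% and 3.73).

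Gene structure gave no clear order. The spans of the canonical GENCODE transcripts run from 1977 bases for EXOSC4 to 35228 for EXOSC7, the 2 members with the largest changes, and span and change in T > C reads had a Spearman rho of −0.14 across the 10 genes. The length of the 3′ UTR entry, from 47 bases for EXOSC4 to 1146 for EXOSC3, gave 0.42, and the level of all reads in DMSO 0.12. The genes lie on 9 chromosomes, with EXOSC2 and EXOSC3 on different arms of chromosome 9.

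Promoters are printed for the 3 largest changes and the 2 smallest among the members listed in RefSeq's promoter table (GRCh38.p14), so that genes that differ in response can be set side by side. The table matched 8 of the 10 members, EXOSC3 with 2 starts. Each stretch below ends at or before the annotated start, runs 5′ to 3′ on the gene's strand, has at most 150 bases and avoids exons of GENCODE. Capitals mark matches, on either strand, to the letters searched.
EXOSC7 (chr3:44976186-44976243, plus strand): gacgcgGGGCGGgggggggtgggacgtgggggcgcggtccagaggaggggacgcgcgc
EXOSC2 (chr9:130693571-130693720, plus strand): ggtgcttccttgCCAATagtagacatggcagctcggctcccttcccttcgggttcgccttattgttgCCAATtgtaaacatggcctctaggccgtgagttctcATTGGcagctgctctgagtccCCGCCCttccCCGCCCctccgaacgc
EXOSC10 (chr1:11099911-11100060, minus strand): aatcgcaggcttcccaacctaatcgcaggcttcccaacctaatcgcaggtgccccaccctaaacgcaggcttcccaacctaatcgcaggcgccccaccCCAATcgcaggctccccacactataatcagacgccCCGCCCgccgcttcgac
EXOSC5 (chr19:41397363-41397512, minus strand): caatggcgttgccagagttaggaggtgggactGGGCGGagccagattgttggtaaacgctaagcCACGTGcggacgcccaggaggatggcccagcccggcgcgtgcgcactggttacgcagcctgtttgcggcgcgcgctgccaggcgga
EXOSC8 (chr13:37000547-37000696, plus strand): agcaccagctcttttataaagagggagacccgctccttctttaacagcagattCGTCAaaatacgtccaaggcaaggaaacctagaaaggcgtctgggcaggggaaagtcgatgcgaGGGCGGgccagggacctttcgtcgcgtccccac

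The letters were searched in the whole window from 250 bases before to 50 after the start. The GC box (GGGCGG), bound by SP and KLF factors, was in 7 of the 8 members, EXOSC9 lacking it, and in 45.0% of all 35114 promoters searched. The core of the cAMP response element (TGACG), bound by CREB and ATF factors, was in 4 members (EXOSC3, EXOSC7, EXOSC8 and EXOSC9) and in 24.6% of promoters, and the full palindrome TGACGTCA, which contains it, in no member and 1.85%. EXOSC7 held TGACG at 4 places and EXOSC8 at 1. CCAAT, the site of NF-Y, was in 4 members (EXOSC2, EXOSC5, EXOSC9 and EXOSC10) and 34.6% of promoters, with 4 matches in EXOSC2. The ETS core CCGGAA was found in EXOSC3 (17.2% of promoters), the E-box CACGTG in EXOSC5 (7.26%), the NRF1 letters GCATGCG in EXOSC10 (3.91%) and the YY1 letters AAGATGGCG in EXOSC2 and EXOSC8 (1.75%). GC box, CRE, CCAAT and YY1 matches were thus present both in members called lower and in members that were not. A match is a description of the letters and not a bound site.

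The other genes of RNA decay were taken from 6 lists with 62 genes. Of these, 54 were tested in T > C reads, where 10 were called lower and none higher, with a median log2 fold change of −0.61 against −0.84 over all tested genes, of which 33.8% were called lower and 2.90% higher. At an unadjusted p under 0.05, edgeR had 28 of them lower and 2 higher, against 55.3% and 5.84% of all tested genes. DESeq2 with size factors from all reads called 9 lower and none higher, against 24.3% and 2.33% of all genes it gave an adjusted p. When T > C reads set the scaling, 3 were lower and 2 (TENT4B and PAN2) higher, against 8.55% and 8.61% of all tested genes. With DESeq2 and its size factors from T > C reads, 1 (SRRT) was lower and 1 (TENT4B) higher, against 4.78% and 6.63%. In the odds of T > C against other reads, edgeR called 18 of the 54 lower and none higher. Of all 7760 tested genes 38.2% were called lower and 61 genes higher. At an unadjusted p under 0.05 the same fit had 38 lower and none higher, against 64.7% and 1.87%. NOP53 (−0.93), NCBP2 (−0.94) and CNOT9 (−0.95), which were called in T > C reads, were not called in the odds. In all reads 57 were tested, of which none was lower and 4 were higher by edgeR as well as by DESeq2 (2.00% and 5.72% of all tested genes by edgeR, 1.99% and 5.78% by DESeq2). At an unadjusted p under 0.05, 10 were lower and 16 higher, against 21.3% and 21.5%.

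**Figure D4:**
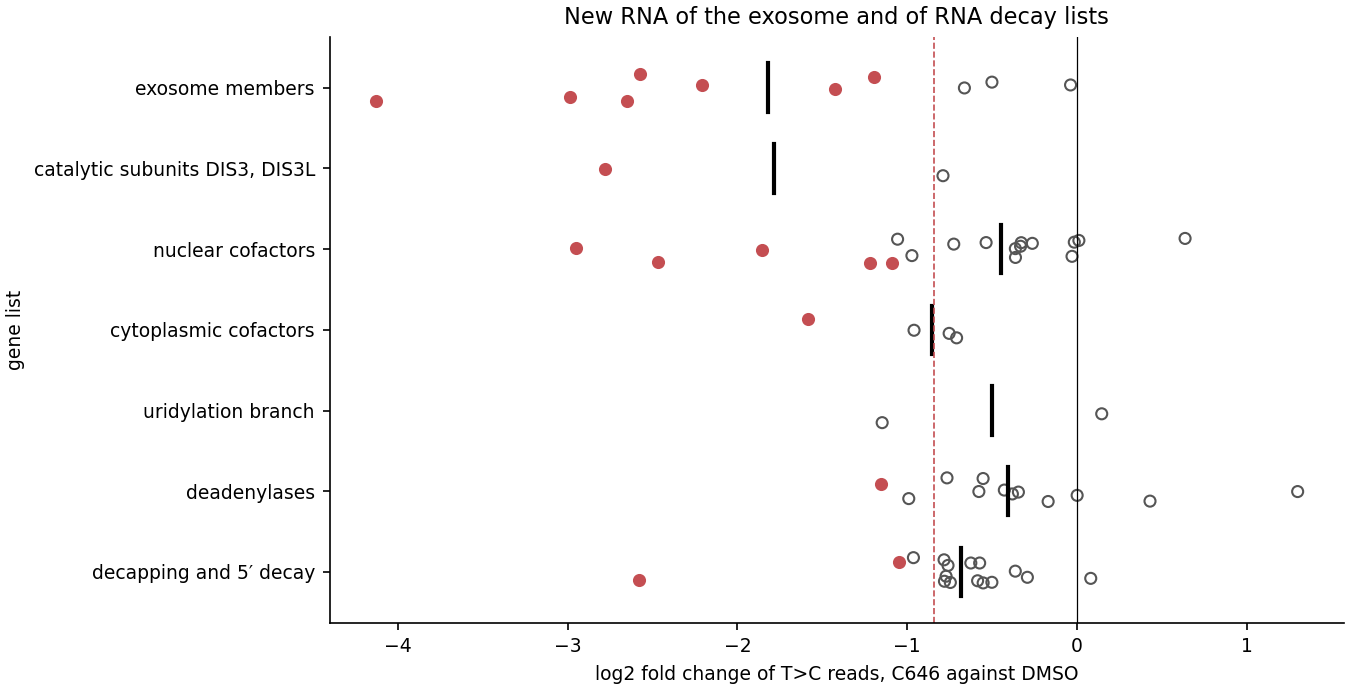
Log2 fold changes of T > C reads for the 10 exosome members and the tested genes of 6 RNA decay lists; filled dots were called lower, open dots were not called, thick bars are list medians and the dashed line is the median of all tested genes (−0.84). The exosome members have a median of −1.82 and the nuclear cofactors of −0.45.

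Of the 2 other nucleases of the complex, DIS3L, the cytoplasmic one, fell. It had 50, 34 and 10 T > C reads in DMSO and 3, 7 and 4 in C646, a log2 fold change of −2.78 ± 0.59 (edgeR, adjusted p = 0.000229), and −0.87 ± 0.22 in all reads. DIS3, the nuclear catalytic subunit, had 191, 118 and 121 T > C reads in DMSO and 61, 93 and 114 in C646, and its log2 fold change of −0.79 ± 0.22 (edgeR, adjusted p = 0.00333) did not reach the fold limit and was at −0.0031 under scaling by the T > C reads. Its total RNA was at 0.01 ± 0.14. DIS3L2, a nuclease that works without the exosome on uridylated RNA, had at most 12 T > C reads in a library and was not tested there.

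Among 18 nuclear cofactors, which feed RNA to the exosome, 5 were lower in T > C reads and none higher. Over all tested genes 33.8% were lower and 2.90% higher. The median log2 fold change was −0.45 for the cofactors and −0.84 for all tested genes. TENT4A, a poly(A) polymerase, fell most of these cofactors, with 40, 20 and 15 T > C reads in DMSO and 3, 1 and 6 in C646 (log2 fold change −2.95 ± 0.62, edgeR adjusted p = 0.000215). UTP18, a ribosomal RNA processing factor that recruits the exosome, followed with 40, 36 and 58 against 2, 9 and 16 (−2.46 ± 0.47, edgeR adjusted p = 7.6e-05). TENT4B, also a poly(A) polymerase, went the other way, with 285, 218 and 236 against 345, 399 and 503. Its change of 0.64 ± 0.16 (edgeR adjusted p = 0.00163) was under the fold limit. MTREX, the helicase of the nuclear exosome, had 55, 35 and 42 against 29, 26 and 30 and was not called (−0.73 ± 0.34, edgeR adjusted p = 0.0653). Under scaling by the T > C reads it was at 0.06. In the odds it was called lower (−1.37 ± 0.31, edgeR adjusted p = 0.000808). In all reads MTREX stood at 0.51 ± 0.16. The other 3 that were called lower, SRRT (−1.86 ± 0.22), NCBP2 (−1.22 ± 0.33) and NOP53 (−1.09 ± 0.34), were named after their values were seen. NOP53 was called in 8 and NCBP2 in 11 of 18 alternatives. NOP53 lost its call without DMSO replicate 1 (−1.24), 2 (−0.86) or 3 (−1.14) and without C646 replicate 2 (−1.12) or 3 (−0.88), and NCBP2 without DMSO replicate 2 (−1.12) or 3 (−1.17) and without C646 replicate 2 (−1.13).

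The counts of the lists below stand beside the 33.8% of all tested genes called lower in T > C reads. Among the cytoplasmic cofactors 1 of 4 tested genes was lower in T > C reads. This was SKIC8, a part of the SKI complex that threads mRNA into the exosome, with 33, 31 and 31 T > C reads in DMSO and 9, 14 and 11 in C646 (−1.59 ± 0.45, edgeR adjusted p = 0.00383). It was not called without DMSO replicate 1 (−1.68), 2 (−1.53) or 3 (−1.55) or without C646 replicate 3 (−1.45). Neither of the 2 tested genes of the uridylation branch was called. Of 12 tested deadenylase genes, CNOT9 was lower (−1.15 ± 0.24, edgeR adjusted p = 0.000187). Of 16 tested genes of decapping and 5′ decay, 2 were lower, the decapping enhancers EDC3 (−2.58 ± 0.57, edgeR adjusted p = 0.000385) and DCP1A (−1.05 ± 0.23, edgeR adjusted p = 0.000385). EDC3 had 34, 22 and 30 T > C reads in DMSO and 2, 10 and 3 in C646, and was at −3.60 without C646 replicate 2. DCP1A was under the fold limit without DMSO replicate 1 (−0.99) and without C646 replicate 1 (−0.96) or 2 (−0.91). Under scaling by all filtered reads, SKIC8 (−1.37), CNOT9 (−0.93), DCP1A (−0.82), NCBP2 (−0.99) and NOP53 (−0.87) were not called. The same genes were not called with glmTreat. Under scaling by the T > C reads, SKIC8 (−0.80), CNOT9 (−0.36), EDC3 (−1.80), DCP1A (−0.27), NCBP2 (−0.44) and NOP53 (−0.29) were no longer called, whereas TENT4A (−2.18), UTP18 (−1.70) and SRRT (−1.07) were still called and DIS3L did not pass the filter. With DESeq2 and its size factors from T > C reads, TENT4A (−2.19, adjusted p = 0.0345), UTP18 (−1.70, adjusted p = 0.0215) and DIS3L (−1.98, adjusted p = 0.0388) lost their calls too, and of the 10 pathway genes called lower SRRT (−1.03) was the one still called. The 4 genes that rose in all reads, named after their values were seen, were TENT4B (1.09 ± 0.13), ZCCHC7 (1.04 ± 0.26) and ZFC3H1 (1.49 ± 0.28) of the nuclear cofactors and PAN2 (1.57 ± 0.28) of the deadenylases, each with an edgeR adjusted p of at most 0.01. ZCCHC7 was not called without DMSO replicate 1 (1.13) or 2 (0.76) or without C646 replicate 2 (1.10) or 3 (0.87), and ZFC3H1 was not called without DMSO replicate 1 (1.44).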

How the data were processed

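The authors sequenced 6 SLAM-seq 3′ end libraries, used SLAM-Dunk 0.4.1 for alignment (GRCh38), and deposited a table for each library in which 58136 3′ UTR entries carry Entrez identifiers. The deposited counts are reads, reads with T > C conversions, conversions and multimapped reads per entry, without normalization. The authors also deposited a signal, the coverage summed over T positions, the reads as CPM of the filtered reads, and the T > C conversion rate as a fraction, of which only the signal and CPM were used here (CPM to compute the filtered reads). The numbers of T bases are listed as 0 in the table of C646 replicate 3 and were taken from the other tables. Base calling by CASAVA 1.9 is named in the submitters' processing notes. The study's methods called genes with DESeq2 on reads with more than 1 conversion, whereas the deposited column counts reads flagged as T > C reads, for which the table header gives no minimum number of conversions.

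Counts were summed over the entries of each gene (16 entries for the 10 members, of which 7 belong to EXOSC1). The gene set and the lists were chosen with earlier results of these data known. Symbols were matched for 25310 of 25420 genes. All genes kept by filterByExpr were fitted with edgeR 4.0.16 (glmQLFit, glmQLFTest; R 4.3.3) with Benjamini-Hochberg adjustment over all of them, and calls had an adjusted p-value up to 0.01 and a log2 fold change of 1 or more in size. T > C reads were scaled by the totals of all counted reads after TMM scaling. CPM values in the text use the same sizes. Standard errors were derived from the quasi-likelihood F (size of the log2 fold change over the root of F). The odds model took T > C and other reads as separate observations, with library effects and an interaction of read kind with treatment. The fits were tested on simulated data. Named genes were the members, DIS3, DIS3L, DIS3L2, MTREX and, in each list, up to 2 called genes per direction with the largest change and a mean of 10 or more T > C reads. The alternatives were other scalings, DESeq2 1.42.0, other filters, the main 3′ UTR entry alone, each place counted once, an adjusted p-value of 0.05, glmTreat, the replicate block and leaving out each library. Values were summarised with Python 3.11.15 and pandas 2.3.3 and plotted with matplotlib 3.10.9. The value of 1 further marker gene is not reported here.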

Additional observations from a re-analysis of the deposited data

How the results depend on the processing

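The members called lower in T > C reads numbered 3 with DESeq2 and size factors from T > C reads and 3 with at least 50 T > C reads on average, where 4 were tested (the odds model gave 3 there as well), against 4.78%, 37.6% and, in the odds, 41.8% of all genes. They numbered 5 under scaling by T > C reads, by all filtered reads and with glmTreat, against 8.55%, 24.3% and 11.1% of all genes. With each library left out they numbered 5 to 7, for which no share of all genes is given here. EXOSC4, EXOSC6 and EXOSC7 were called under each alternative that tested them. The signs of uncalled members turned as follows. EXOSC1, EXOSC5 and EXOSC8 were at 0.13, 0.28 and 0.75 under scaling by T > C reads and at 0.18, 0.31 and 0.79 with DESeq2 and its size factors, and EXOSC8 was at 0.18 under all filtered reads and between −0.11 and 0.11 with each library left out (0.11 without DMSO replicate 1, 0.04 without C646 replicate 1). In all reads EXOSC7 was at 0.041 under all filtered reads, and with each library left out EXOSC3 was between −0.021 (without DMSO replicate 2) and 0.37 and the log2 odds of EXOSC1 between −0.59 and 0.080 (without C646 replicate 2). EXOSC5 was called lower in the odds without DMSO replicate 1 (−1.19) and without C646 replicate 3 (−1.05). Pathway genes called lower in T > C reads numbered 3 and those called higher 2 under scaling by T > C reads, 1 and 1 with DESeq2 and its size factors, 4 of 53 lower under all filtered reads, 3 of 23 lower with at least 50 T > C reads and 5 of 54 lower with glmTreat, beside the same shares of all genes. With each library left out, 0 to 1 of them were lower in all reads (DIS3L, at −1.05 without DMSO replicate 3 and −1.07 without C646 replicate 1) and 2 to 5 higher, with 2 without DMSO replicate 1. The causes of these changes were not tested. The labels do not say whether replicate numbers pair the samples, and these values do not settle it. Deviations of same-numbered libraries correlated at 0.030 to 0.066 in T > C reads and −0.0015 to 0.23 in all reads. Those of libraries with different numbers correlated at −0.050 to 0.016 and at −0.22 to 0.15. With the replicate block 7 members and 10 pathway genes were lower in T > C reads, and 7 members were lower in the odds. In all reads 0 members and 4 pathway genes were called with it. Shares of all genes called are not given here for the replicate block or with a library left out, and nothing is read from those counts. Counting each place once changed nothing, since no gene lists a place more than once. The median over the members taken in each DMSO library and then averaged over the 3 libraries was 9.67% for the T > C share, and stayed between 9.35 and 10.1%, and 6.33 for conversions per 1000 covered T, and stayed between 6.22 and 6.49. At 5 to 23 T > C reads per library, counting error limits EXOSC1, EXOSC2, EXOSC4, EXOSC7 and EXOSC10 in C646. EXOSC2, EXOSC4, EXOSC7 and EXOSC10 had mean T > C shares of 1.11 to 1.92% in C646. How much of this arises without label was not measured.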
